A study of Ovis aries with 22 samples.

Results

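The genes described are the core of the transforming growth factor beta (TGF-beta) pathway in the wall of the sheep arterial sinuses: the ligands TGFB1, TGFB2 and TGFB3, the latency protein LTBP1, the receptors TGFBR1, TGFBR2 and TGFBR3, and the intracellular mediators SMAD2, SMAD3 and SMAD4. They were chosen by name, for their role in the pathway and in hereditary aortic disease, with earlier results of these data known. They make up 10 of the 26200 gene symbols in the deposited count tables. All 10 were among the 14979 genes that passed the filter on low counts, with 371 to 19795 counts per gene and library. TGF-beta ligands are secreted in a latent form that is tethered to the extracellular matrix by latent TGF-beta binding proteins such as LTBP1. Once released, a ligand joins the type II receptor TGFBR2 to the type I receptor TGFBR1, which phosphorylates SMAD2 and SMAD3, and these enter the nucleus together with SMAD4 to control transcription. In arteries the pathway is known for matrix production and for the smooth muscle phenotype, and inherited mutations of TGFB2, TGFB3, TGFBR1, TGFBR2, SMAD2 and SMAD3 cause aneurysms of the aortic root.

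RNA sequencing was done on sinus wall tissue of sheep (Ovis aries). The Ross procedure replaces the aortic root with the animal's own pulmonary root, which is then called the pulmonary autograft. Autograft sinus came from 3 operated animals, 6 months after that surgery. The control groups were native aortic sinus and native pulmonary sinus of animals D3, D4, D5 and D6, each of which gave 1 library to both groups. The labels used here give no strain, age or sex. The autograft started as pulmonary sinus wall, and in its new position it takes the place of aortic sinus wall. No native tissue of the operated animals was analysed here, so the surgery and differences between the animals cannot be told apart. The aortic library of animal D3 (replicate 1) is labelled with the treatment "Ross surgery", whereas the design text describes the native tissue as from sheep without an operation, and the fits were repeated without it and without animal D3.

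The 22 sample entries were 11 libraries sequenced in 2 runs each, with 17380599 to 20741334 counts per library after adding the runs and counts in 17006 to 17940 genes. The first principal component held 37.9% of the variance, and on it pulmonary replicate 1 lay beside the aortic libraries, while autograft replicate 1 stood apart on the second component. Smooth muscle markers (8 of 9 in the tables, none at 0 in any library) summed to 24635 to 48483 CPM (counts scaled to a common library size) in autograft, 50128 to 70820 in aortic and 52259 to 85195 in pulmonary libraries. Fibroblast and adventitia markers (9 of 9, none at 0) summed to 10220 to 13810 CPM in autograft, 5266 to 6989 in aortic and 2650 to 8535 in pulmonary libraries. The 8 markers of T and natural killer cells summed to 33.7 to 42.97 CPM in autograft against at most 9.94 CPM in a native library.

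Across all 10 genes, 2 passed the test between autograft and pulmonary sinus: TGFBR1 was higher and SMAD4 was lower in the autograft. None passed between autograft and aortic sinus, and none between the native sinuses. The test was edgeR's quasi-likelihood test, with p-values adjusted by the Benjamini-Hochberg method over all 14979 genes and a gene called at an adjusted p under 0.05. By the same test 11.3% of all genes were called between autograft and pulmonary sinus (6.05% higher and 5.29% lower), 2.38% between autograft and aortic sinus (0.948% higher and 1.43% lower) and 0% between aortic and pulmonary sinus. The count of 2 of 10 is small, and nothing particular to these genes is read from it. The median log2 fold change over the 10 genes was 0.01 against pulmonary and 0.02 against aortic sinus, beside a median over all tested genes of 0.00 in both comparisons. Both comparisons use the same 3 autograft libraries and are therefore not independent of each other. In whole tissue, fewer cells of a type that expresses a gene and less of its RNA per cell cannot be told apart, for any of the values below.

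**Figure D1:**
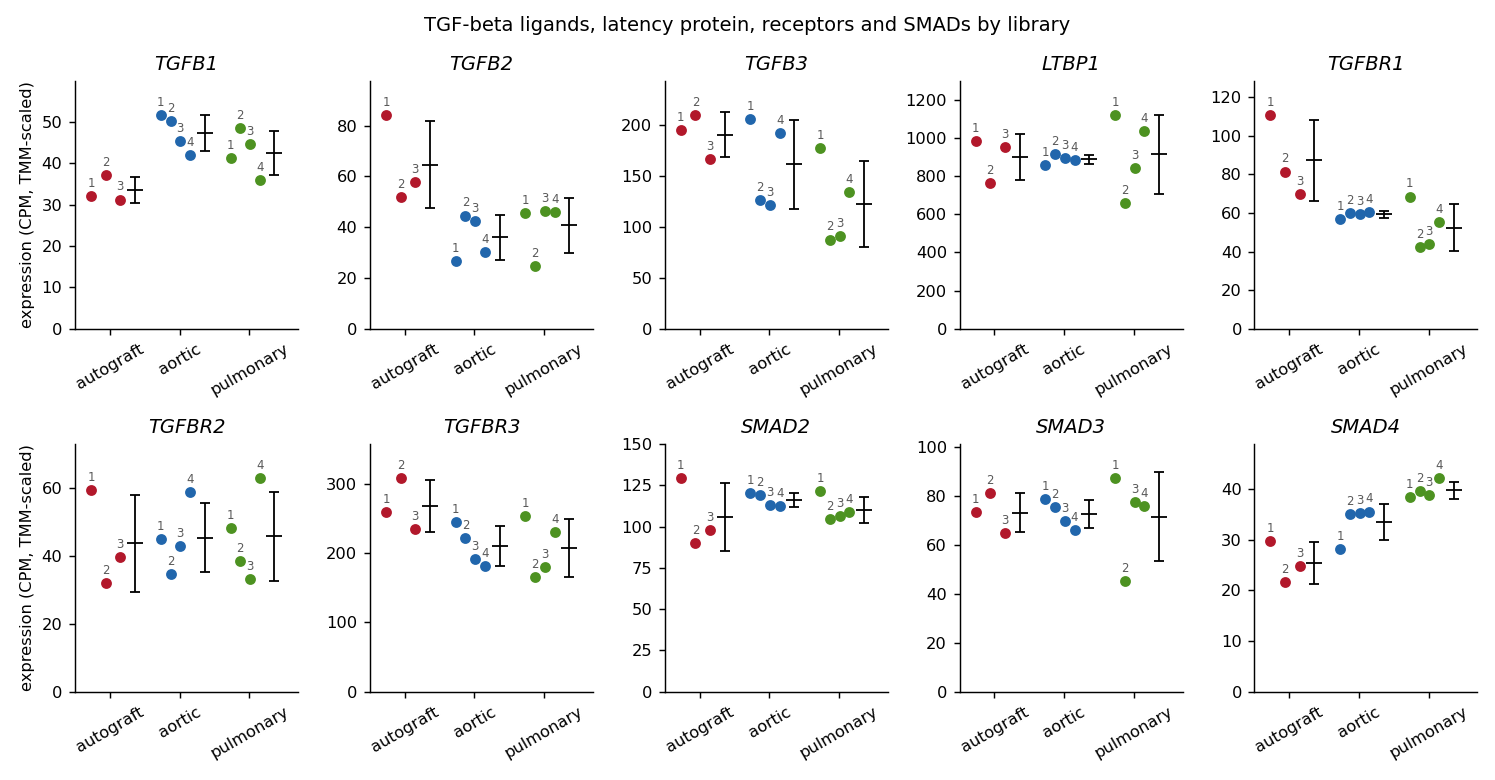
Expression of each gene in CPM (linear axis from 0) in every library, with the replicate number above each point and the group mean ± SD beside the points, for 3 autograft, 4 aortic and 4 pulmonary libraries. TGFBR1 is at 69.6 CPM or more in each autograft library and at 68.5 CPM or less in each native library, and SMAD4 is at 29.8 CPM or less in each autograft library and at 38.5 CPM or more in each pulmonary library.

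Of the ligands, TGFB2 lay higher and TGFB1 lower in the autograft than in either native sinus on average, and neither difference passed the test over all genes. TGFB2, an isoform required for heart and outflow tract development, stood at 84.1, 52.0 and 57.8 CPM in autograft replicates 1 to 3. In aortic sinus it stood at 26.8, 44.6, 42.4 and 30.1 CPM, and in pulmonary sinus at 45.5, 24.6, 46.6 and 46.1 CPM. Every autograft library was thus above all 8 native libraries, with autograft replicate 1 the highest and pulmonary replicate 2 the lowest of the 11. TGFB2 had a log2 fold change of 0.67 ± 0.26 (SE) against pulmonary sinus (95% interval 0.10 to 1.24, edgeR adjusted p = 0.111). Against aortic sinus it was 0.85 ± 0.26 (95% interval 0.28 to 1.42, edgeR adjusted p = 0.0986).

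TGFB1, the isoform most studied in fibrosis and immune regulation, stood at 32.2, 37.1 and 31.2 CPM in the autograft libraries. It stood at 51.6, 50.2, 45.3 and 42 CPM in aortic and at 41.2, 48.4, 44.6 and 35.8 CPM in pulmonary sinus. The autograft libraries were all below the aortic ones, while autograft replicate 2 lay above pulmonary replicate 4. Its mean was 33.5 ± 3.14 CPM (SD, n = 3) in autograft, 47.3 ± 4.44 (n = 4) in aortic and 42.5 ± 5.33 (n = 4) in pulmonary sinus. The log2 fold change was -0.50 ± 0.13 against aortic (edgeR adjusted p = 0.0636) and -0.34 ± 0.13 against pulmonary sinus (edgeR adjusted p = 0.0937). In both cases the 95% interval lay below 0, from -0.77 to -0.22 and from -0.62 to -0.07, but the correction over all genes was not passed. DESeq2 in place of edgeR called TGFB1 lower (log2 fold change -0.49, DESeq2 adjusted p = 0.0168) and TGFB2 higher (0.86, DESeq2 adjusted p = 0.0279) against aortic sinus. DESeq2 also called 1469 genes in that comparison, where edgeR called 356.

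TGFB3, an isoform best known from palate formation and scar-poor healing, had the most counts of the 3 ligands, with 195, 209.6 and 166 CPM in the autograft libraries. In aortic sinus it stood at 206, 126, 121 and 192 CPM, and in pulmonary sinus at 178, 87.6, 91.3 and 135 CPM. The native libraries spread widely: aortic replicates 1 and 4 and pulmonary replicate 1 lay within the autograft range, and the other native libraries lay below it. The log2 fold change was 0.63 ± 0.26 against pulmonary sinus (edgeR adjusted p = 0.133) and 0.24 ± 0.27 against aortic sinus (edgeR adjusted p = 0.625). Without pulmonary replicate 1, TGFB3 was called higher against pulmonary sinus (log2 fold change 0.84, edgeR adjusted p = 0.0365), and likewise without animal D3 (0.87, edgeR adjusted p = 0.0334). TGFB3 was not called without both pulmonary replicate 1 and autograft replicate 1. Calls over all genes against pulmonary sinus also rose without pulmonary replicate 1, from 1699 to 2753.

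The balance between the ligands can be set out on the authors' FPKM scale, which divides by the length of the gene model. TGFB1 made up 42.1% to 45.6% of the summed FPKM of the 3 ligands in autograft, 49.7% to 61.3% in aortic and 51.4% to 68.4% in pulmonary libraries. TGFB3 made up 42.4% to 48.2% in autograft, 29.8% to 45.0% in aortic and 25.0% to 40.7% in pulmonary libraries. TGFB2 remained the smallest part throughout, with 9.62% to 12.6% in autograft, 5.19% to 8.91% in aortic and 6.59% to 12.0% in pulmonary libraries. The TGFB1 share was lower in each autograft library than in any native library, and the TGFB3 share exceeded the TGFB1 share in autograft replicates 1 and 2 and in no other library. Which of the 2 shares is larger rests on the length the authors used for each gene. The FPKM were also equalised between libraries before deposit, so the size of the shares in a library depends on that step too. In CPM TGFB3 exceeded TGFB1 in every library, by 0.86 (pulmonary replicate 2) to 2.60 (autograft replicate 1) on the log2 scale. The shares are given as a description and were not tested.

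**Figure D2:**
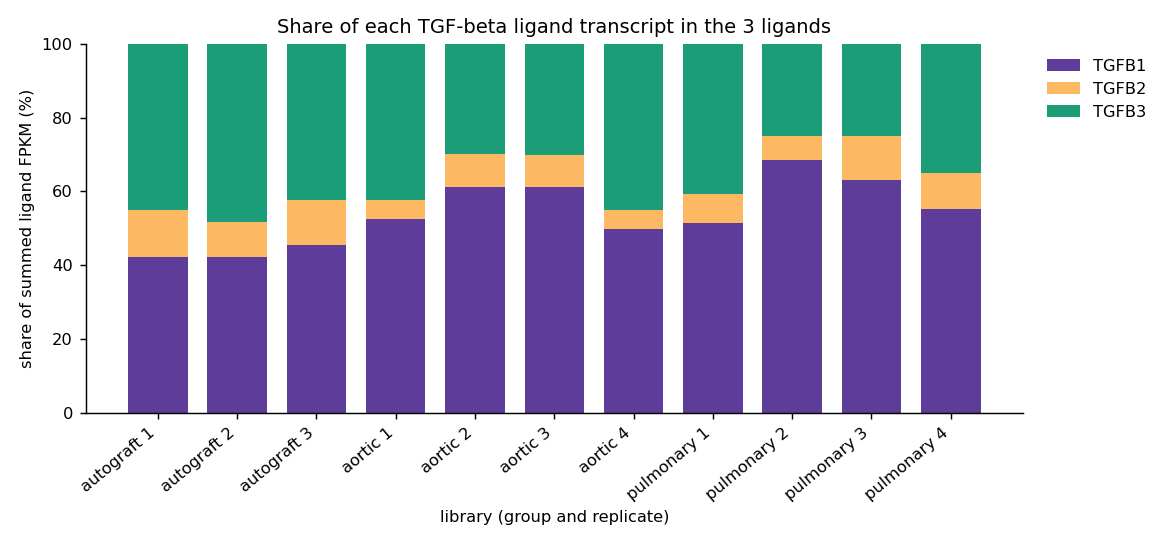
Share of TGFB1, TGFB2 and TGFB3 in the summed FPKM of the 3 ligands, in percent (bars stacked from 0 to 100), for each of the 11 libraries. TGFB1 takes 42.1% to 45.6% in the 3 autograft libraries and 49.7% or more in each native library. The FPKM were equalised between libraries before deposit.

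LTBP1, which binds the latent ligand complex to fibrillin microfibrils, was by far the most abundant transcript of the 10. It ranged from 763 to 985 CPM in autograft, from 856 to 915 CPM in aortic and from 658 to 1118 CPM in pulmonary libraries. The group means of 900.1 ± 120 (SD, n = 3), 887 ± 25.2 (n = 4) and 914 ± 206 CPM (n = 4) differed by less than the spread between pulmonary libraries. LTBP1 had a log2 fold change of -0.02 ± 0.17 against pulmonary (95% interval -0.40 to 0.36, edgeR adjusted p = 0.948) and 0.02 ± 0.17 against aortic sinus (95% interval -0.36 to 0.40, edgeR adjusted p = 0.955).

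TGFBR1, the type I receptor kinase that phosphorylates SMAD2 and SMAD3, rose in the autograft relative to pulmonary sinus. It stood at 111, 81.4 and 69.6 CPM in autograft replicates 1 to 3, at 56.8, 60.1, 59.2 and 60.7 CPM in aortic sinus and at 68.5, 42.1, 44 and 55.1 CPM in pulmonary sinus. No native library reached the lowest autograft library, although pulmonary replicate 1 came close to it, and the 4 aortic libraries were nearly equal. The mean was 87.2 ± 21.1 CPM (SD, n = 3) in autograft, 59.2 ± 1.73 (n = 4) in aortic and 52.4 ± 12.1 (n = 4) in pulmonary sinus. The autograft was 1.66-fold higher than pulmonary sinus (log2 fold change 0.73 ± 0.18, edgeR adjusted p = 0.0318). Against aortic sinus it was 1.47-fold higher, which did not pass (0.56 ± 0.18, edgeR adjusted p = 0.116), and DESeq2 called this difference (0.57, DESeq2 adjusted p = 0.0479).

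The call of TGFBR1 against pulmonary sinus depended on the libraries included, and it was also lost with only the compared groups in the fit (log2 fold change 0.73, edgeR adjusted p = 0.0873). It was lost without autograft replicate 1 (log2 fold change 0.52, edgeR adjusted p = 0.0860), autograft replicate 2 (0.78, 0.0650), pulmonary replicate 2 (0.64, 0.0846), pulmonary replicate 3 (0.65, 0.0877) or pulmonary replicate 4 (0.76, 0.0557). It was kept without any other single library, without animal D3 (0.89, edgeR adjusted p = 0.0149) and without both pulmonary replicate 1 and autograft replicate 1 (0.66, 0.0161). Autograft replicate 1, where TGFBR1 was highest, also had the lowest summed smooth muscle markers of all libraries, at 24635 CPM. The part of cell content in this difference was not tested.

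TGFBR2, the type II receptor that binds the ligand first, showed no such shift. It ranged from 32.0 to 59.6 CPM in autograft, from 34.7 to 59.0 in aortic and from 33.3 to 63.1 in pulmonary libraries, so that all 3 ranges coincided. TGFBR2 had a log2 fold change of -0.07 ± 0.26 against pulmonary sinus (95% interval -0.64 to 0.51, edgeR adjusted p = 0.891) and -0.05 ± 0.26 against aortic sinus (95% interval -0.63 to 0.52, edgeR adjusted p = 0.920). Both intervals end below the log2 fold change measured for TGFBR1 in the same comparison (0.73 and 0.56). The 95% intervals of TGFBR1 (0.33 to 1.14 and 0.15 to 0.96) overlap them, and the difference between the receptors itself was not tested. The ratio of TGFBR1 to TGFBR2 CPM was 1.76 to 2.55 in autograft, 1.03 to 1.73 in aortic and 0.873 to 1.42 in pulmonary libraries. It was higher in each autograft library than in any native one, as a description without a test.

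TGFBR3, or betaglycan, the co-receptor that presents TGFB2 to the signalling receptors, was the most abundant receptor transcript per length. It ranged from 235 to 309 CPM in autograft, from 182 to 245 in aortic and from 166 to 253 in pulmonary libraries. The highest library was autograft replicate 2, and the ranges overlapped through aortic replicate 1 and pulmonary replicate 1. The log2 fold change was 0.37 ± 0.17 against pulmonary (edgeR adjusted p = 0.169) and 0.35 ± 0.17 against aortic sinus (edgeR adjusted p = 0.247), and neither passed.

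SMAD4, the common partner that SMAD2 and SMAD3 share with the SMADs of the bone morphogenetic protein branch, fell in the autograft relative to pulmonary sinus. It stood at 29.8, 21.6 and 24.8 CPM in the autograft libraries, at 28.2, 35.1, 35.2 and 35.6 CPM in aortic sinus and at 38.5, 39.6, 38.7 and 42.2 CPM in pulmonary sinus. The pulmonary libraries lay close together and above every other library, and aortic replicate 1 was the only native library within the autograft range. The mean was 25.4 ± 4.11 CPM (SD, n = 3) in autograft, 33.5 ± 3.54 (n = 4) in aortic and 39.8 ± 1.70 (n = 4) in pulmonary sinus. The level in pulmonary sinus was 1.57 times that in the autograft (log2 fold change -0.65 ± 0.13, edgeR adjusted p = 0.0156). Against aortic sinus the log2 fold change was -0.40 ± 0.13 (95% interval -0.68 to -0.12), which did not pass (edgeR adjusted p = 0.109).

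Without autograft replicate 2, where SMAD4 was lowest, the call against pulmonary sinus was lost (log2 fold change -0.55, edgeR adjusted p = 0.0554). Calls over all genes in this comparison also fell without autograft replicate 2, from 1699 to 452. The call of SMAD4 was kept without each other library in turn, with an edgeR adjusted p of at most 0.0435, and without animal D3 (-0.66, edgeR adjusted p = 0.0149). The summed smooth muscle markers were lower in every autograft library than in any native library, and the summed fibroblast and adventitia markers were higher. Single markers did not all follow their sum: 4 of 8 smooth muscle markers were lower in each autograft library than in any native one (MYH11, MYOCD, SMTN and SYNPO2), and 4 of 9 fibroblast and adventitia markers were higher (APOD, DCN, LUM and SFRP2). The sum of the latter is carried by DCN and LUM, while PI16 in autograft replicates 1 and 2 (324 and 367 CPM) lay below all aortic libraries (424 to 714 CPM). MFAP5 in autograft replicate 3 (285 CPM) also lay below all aortic libraries (309 to 450 CPM), and PDGFRA there (121 CPM) below pulmonary replicate 1 (172 CPM). The part of this difference in cell content in the SMAD4 and TGFBR1 results was not tested.

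SMAD2 and SMAD3, the mediators phosphorylated by TGFBR1, did not pass in any comparison. SMAD2 ranged from 90.3 to 129.6 CPM in autograft, against 113 to 120.4 in aortic and 105 to 122 in pulmonary libraries, with autograft replicate 1 the highest and autograft replicate 2 the lowest of all. SMAD3 ranged from 64.9 to 80.9 CPM in autograft, from 65.8 to 78.5 in aortic and from 45.2 to 87.2 in pulmonary libraries, where replicate 2 was the lowest. The log2 fold change against pulmonary sinus was -0.06 ± 0.13 for SMAD2 (95% interval -0.33 to 0.22) and 0.03 ± 0.19 for SMAD3 (95% interval -0.38 to 0.45). Against aortic sinus it was -0.13 ± 0.13 for SMAD2 (95% interval -0.41 to 0.14) and 0.01 ± 0.19 for SMAD3 (95% interval -0.40 to 0.43). Against pulmonary sinus the intervals of SMAD2 and SMAD3 exclude a fall as large as the one measured for SMAD4 there (-0.65). Against aortic sinus the intervals of both reach the fall measured for SMAD4 there (-0.40). Whether the change of SMAD4 differed from that of SMAD2 or SMAD3 was not tested.

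**Figure D3:**
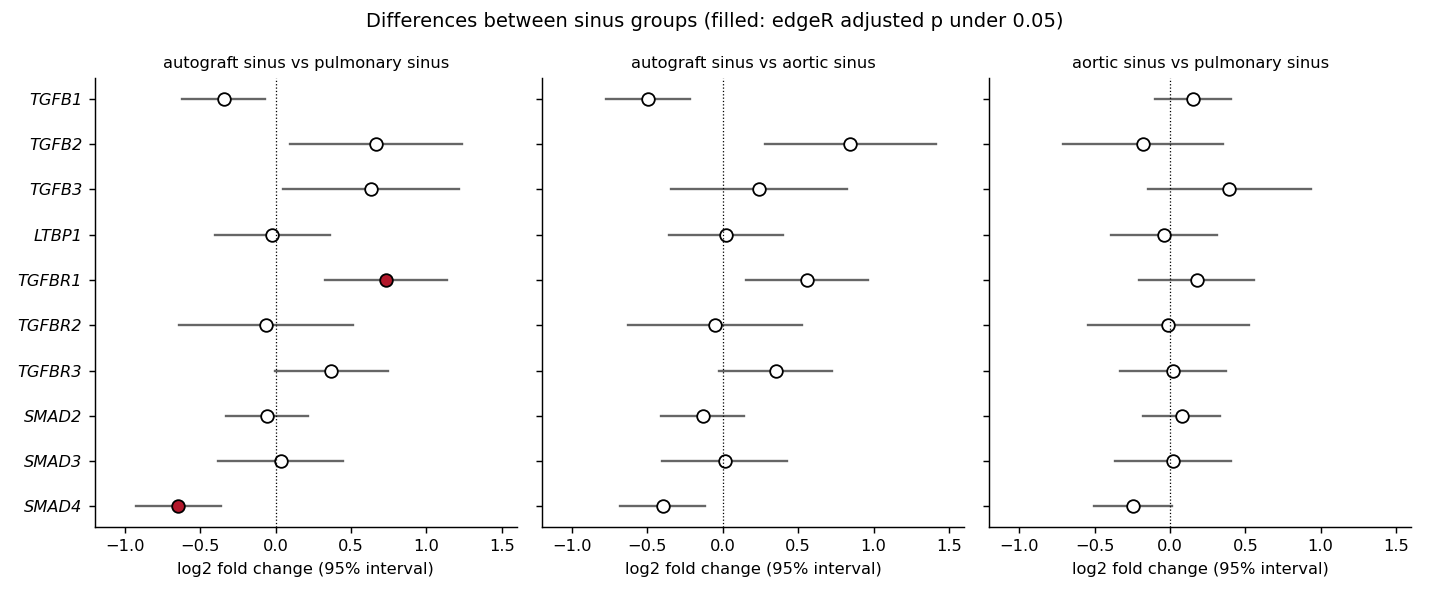
Log2 fold change of each gene with its 95% interval in the 3 comparisons, with filled points where the edgeR adjusted p was under 0.05. TGFBR1 (0.73) and SMAD4 (-0.65) against pulmonary sinus are the only filled points. The intervals of TGFB1, TGFB2, TGFBR1 and SMAD4 lie to one side of 0 in both autograft comparisons, and that of TGFB3 only against pulmonary sinus. The intervals are not adjusted for the number of genes tested. Of all tested genes, 30.6% had an unadjusted edgeR p under 0.05 against pulmonary sinus and 23% against aortic sinus.

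Counting the genes whose libraries did not overlap gave a like picture. Against pulmonary sinus 3 of 10 did not overlap (TGFB2, TGFBR1 and SMAD4), beside 22.1% of all tested genes. Against aortic sinus 3 of 10 did not overlap (TGFB1, TGFB2 and TGFBR1), beside 20.6% of all tested genes. TGFB2 and TGFBR1 were therefore above all native libraries in each autograft library. The shares of genes among the 10 were near those of the background.

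Between the native sinuses no gene of the 10 passed, and none of the 14979 genes did with edgeR, DESeq2 or limma-voom. An unadjusted edgeR p under 0.05 was found for 306 genes (2.04% of those tested), a smaller share than is expected with no difference at all. SMAD4 was the 1 gene of 10 whose aortic and pulmonary libraries did not overlap, beside 1.42% of all genes. It was lower in aortic sinus by a log2 fold change of -0.25 ± 0.12 (95% interval -0.50 to 0.01, edgeR adjusted p = 0.99995). The largest difference in size was that of TGFB3, at 0.39 ± 0.25 (95% interval -0.15 to 0.94). For TGFB1, SMAD2 and TGFBR3 the intervals lay within 0.41 on either side of 0 (-0.10 to 0.41, -0.18 to 0.33 and -0.33 to 0.37). Those of SMAD3 (-0.36 to 0.40) and LTBP1 (-0.39 to 0.31) did so too. In a fit of the native libraries with the animal as a block, the count stayed at 0 of 10.

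**Figure D4:**
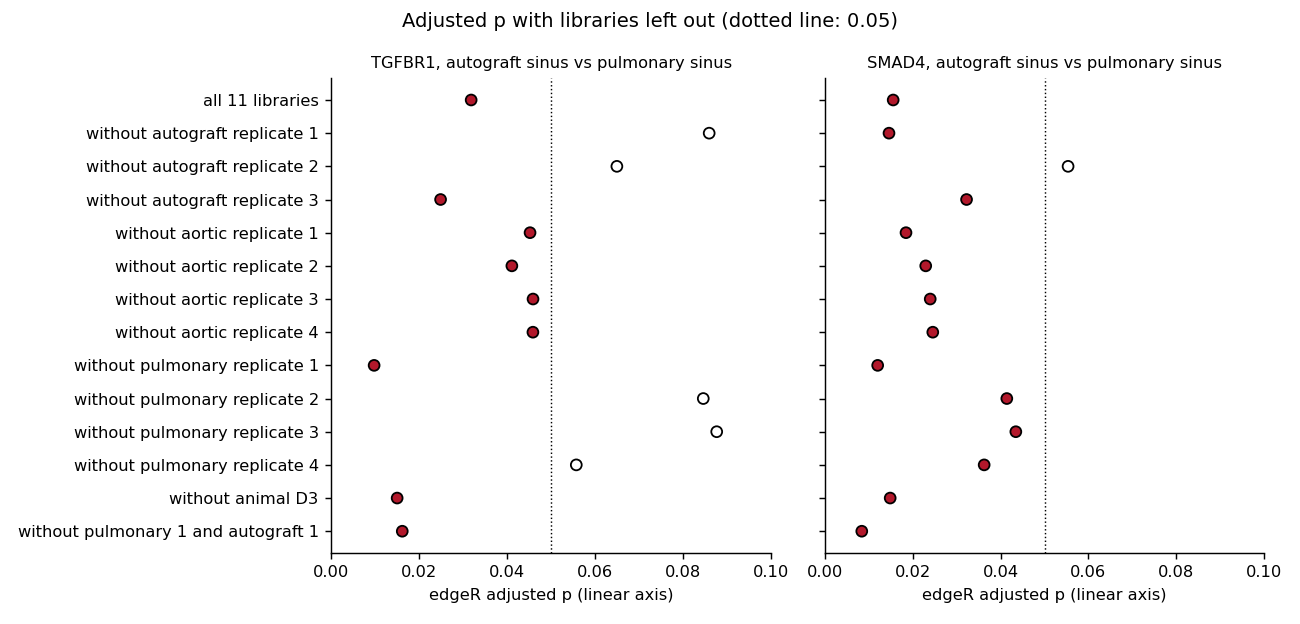
EdgeR adjusted p (linear axis, dotted line at 0.05) of TGFBR1 and SMAD4 between autograft and pulmonary sinus with all libraries and with libraries left out, with filled points under 0.05. TGFBR1 lies above 0.05 without any of 5 single libraries, up to 0.0877, and SMAD4 without 1 library, at 0.0554.

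Levels of different genes can be compared only per length, on the authors' FPKM scale. LTBP1 had a mean of 148 FPKM over the 11 libraries, above 96.8% of the genes in the FPKM tables, and its lowest library (119) was above every library of the other 9 genes. TGFB1 followed with 39.4 FPKM, then TGFBR3 with 28.7 and TGFB3 with 28.1, and the ranges over libraries of these 3 overlapped (33.2 to 45.6, 22.1 to 41.3 and 14.9 to 39.4). SMAD4 came next with a mean of 19.8 FPKM (13.1 to 24.3). SMAD2 (9.62), TGFBR2 (9.61), SMAD3 (9.40), TGFBR1 (9.01) and TGFB2 (6.62) lay lowest, and their ranges overlapped so far that no order among them is given. The order rests on the length the authors used for each gene, which the files do not give: 1 FPKM was worth 18.9 counts for TGFB1 and 30.4 for SMAD4, but 216 for SMAD2. TGFB1 thus had fewer counts than TGFB3 and a higher FPKM.

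The genes whose log2 CPM followed TGFBR1 most closely over the 11 libraries were AGFG1 (Pearson r 0.99), LOC101117287 (0.98) and UHRF2 (0.98), of 14978 genes compared. For SMAD4 they were GIGYF2, IDS and RAB11FIP2 (each 0.97). After the group means were taken out, r was 0.98, 0.96 and 0.96 for the first 3 and 0.94, 0.92 and 0.89 for the second 3. The genes were picked by r over the same libraries, so these values are no separate support for the likeness. The points share library, depth and scaling, and r is given as a description.

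Other genes of the pathway were counted by lists, and those named are the called genes of each list, or the gene with the smallest p where none was called. DCN, COL1A2, POSTN and, against pulmonary sinus, WWP1 fell outside the rule for naming genes and are named after their values were seen. Of 23 tested genes for latency and activation of the ligands, 4 rose and none fell in the autograft against pulmonary sinus (11.3% of all genes were called), with a list median log2 fold change of 0.34 (all genes 0.00). They were the gelatinase MMP2 (log2 fold change 2.08 ± 0.26), the proteoglycan FMOD (0.93 ± 0.16), the latent TGF-beta activator THBS1 (3.35 ± 0.59) and the TGF-beta-binding proteoglycan DCN (1.40 ± 0.31). THBS1 went from 18.9 to 85.0 CPM in pulmonary libraries to 229.8, 353 and 679 CPM in the autograft. Against aortic sinus 4 of 23 rose and none fell (2.38% of all genes were called, list median 0.34): MMP2 by 1.90 ± 0.26, FMOD by 0.77 ± 0.16, THBS1 by 2.68 ± 0.57 and DCN by 1.36 ± 0.31. Against pulmonary sinus the calls of MMP2, FMOD and THBS1 were kept without any single library, and that of DCN was lost without pulmonary replicate 3 (edgeR adjusted p = 0.0594), with only the compared groups in the fit (0.0609) and as log2(FPKM + 1) (0.92, limma adjusted p = 0.0914). Against aortic sinus only MMP2 kept its call throughout, while FMOD and THBS1 each lost it without any of 7 single libraries and DCN without any of 9. In limma-voom DCN also lost its call against aortic sinus, both without a block (limma adjusted p = 0.0567) and with the animal as a random block (0.0555). As log2(FPKM + 1), DCN differed from aortic sinus by 0.56 (limma adjusted p = 0.344) and FMOD by 0.45 (limma adjusted p = 0.134). The FPKM were equalised between libraries before deposit, and the part of that step in these values was not tested. With only the compared groups in the fit FMOD did not pass against aortic sinus either (edgeR adjusted p = 0.0642). DCN is also 1 of the 9 fibroblast and adventitia markers.

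Among 14 other receptors of the family, 2 rose and 1 fell against pulmonary sinus (11.3% of all genes called), with a list median of 0.07, and none passed against aortic sinus (median 0.18). ACVRL1, an endothelial type I receptor for BMP9 and BMP10, rose by 1.20 ± 0.32, at 52.8, 119 and 74.6 CPM in autograft against 20.1 to 48.1 in pulmonary libraries. Endothelial markers summed to 141 to 1624 CPM in autograft and 118 to 414 in pulmonary libraries, and their part in this rise was not tested. BMPR1A, a type I receptor for bone morphogenetic proteins, fell by 0.56 on the log2 scale (SE 0.11), at 179, 134 and 168 CPM in autograft against 222 to 255 in pulmonary libraries. BMPR1B rose from very few counts, 1 to 4 in each pulmonary library against 9 to 36 in each autograft library. ACVRL1 lost its call without any of 6 single libraries (edgeR adjusted p up to 0.133), BMPR1B without any of 3 (up to 0.0577), and BMPR1A without autograft replicate 2 (0.0509). With only the compared groups in the fit, ACVRL1 (edgeR adjusted p = 0.0787) and BMPR1A (0.0603) did not pass, nor did BMPR1B as log2(FPKM + 1) (0.36, limma adjusted p = 0.0615). Against aortic sinus the activin receptor ACVR1B had the smallest p (0.65 ± 0.18, edgeR adjusted p = 0.0760).

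Of 21 other SMADs and their regulators, 2 rose and 2 fell against pulmonary sinus (11.3% of all genes called, list median -0.12), and 1 rose and 2 fell against aortic sinus (2.38% called, list median -0.08). SMAD1, a mediator of the bone morphogenetic protein branch that also pairs with SMAD4, fell against pulmonary sinus by 0.75 on the log2 scale (SE 0.20). It stood at 27.5, 33.2 and 33.6 CPM in autograft and at 44.1, 62.7, 63.4 and 40.8 CPM in pulmonary sinus, without overlap. The corepressor SKI, which binds SMAD complexes, fell by 1.08 (SE 0.10) and kept that call without any single library. TGIF1, another corepressor of SMAD2, rose by 1.14 ± 0.31 from a low level of 3.93 to 8.47 CPM. The ubiquitin ligase WWP1 rose by 0.54 ± 0.15 against pulmonary and by 0.66 ± 0.15 against aortic sinus. Against aortic sinus SKI (-1.05 ± 0.10) and the feedback inhibitor PMEPA1 (-0.73 ± 0.15) were lower. Calls were lost for SMAD1 without any of 5 single libraries, TGIF1 without any of 8, WWP1 without any of 9 and, against aortic sinus, WWP1 without any of 10 and PMEPA1 without any of 8. With only the compared groups in the fit, SMAD1 (edgeR adjusted p = 0.0726), TGIF1 (0.0688) and WWP1 (0.0815, and 0.0712 against aortic sinus) did not pass. As log2(FPKM + 1), SMAD1 (-0.68, limma adjusted p = 0.0614) and WWP1 (0.28, 0.0893, and 0.34, 0.0885 against aortic sinus) did not pass, nor did TGIF1 with a pseudocount of 0.1 (0.92, 0.0527).

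Of 20 tested ligands and ligand traps of the wider family, 3 rose against pulmonary sinus and none fell (11.3% of all genes called), with a list median of 0.46. These were CHRDL1, a secreted antagonist of bone morphogenetic proteins (2.02 ± 0.45), and the ligands BMP6 (1.75 ± 0.35) and BMP4 (1.29 ± 0.36). BMP6 stood at 6.69, 16.8 and 13.1 CPM in autograft and at 3.19 to 4.29 CPM in pulmonary libraries. None of the 20 passed against aortic sinus (median 0.53), where CHRDL1 had the smallest p (1.59 ± 0.45, edgeR adjusted p = 0.0826). The call of BMP6 was lost without autograft replicate 2 (edgeR adjusted p = 0.0557), that of CHRDL1 without any of 3 single libraries (up to 0.0651) and that of BMP4 without any of 9 (up to 0.136). BMP4 did not pass with only the compared groups in the fit (edgeR adjusted p = 0.0941) or as log2(FPKM + 1) (1.18, limma adjusted p = 0.0564).

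In the branch that does not use SMADs, 1 of 13 tested genes rose against pulmonary sinus (6.05% of all genes called higher, list median -0.14). PIK3R1, a regulatory subunit of phosphoinositide 3-kinase, rose by 0.79 ± 0.16, at 28.6, 21.6 and 29.5 CPM in autograft against 13.0 to 18.1 CPM in pulmonary libraries. PIK3R1 also rose against aortic sinus (0.86 ± 0.16, edgeR adjusted p = 0.0314), as the only called gene of the list (median -0.06). PIK3R1 lost its call against pulmonary sinus without pulmonary replicate 2 (0.0501) or 3 (0.0556) and with only the compared groups in the fit (0.0535), and its call against aortic sinus without any of 7 single libraries.

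Of 27 tested transcripts known to respond to TGF-beta, 4 rose and 1 fell against pulmonary sinus, beside 6.05% of all genes higher and 5.29% lower, with a list median of 0.54. The 4 were the collagen chains COL1A1 (1.42 ± 0.21), COL3A1 (1.32 ± 0.30) and COL1A2 (0.96 ± 0.24) and the matricellular protein POSTN (1.67 ± 0.42). MYH11, the smooth muscle myosin heavy chain that TGF-beta is known to raise in smooth muscle cells, was lower (-1.30 ± 0.28). MYH11 is also among the smooth muscle markers, so its fall and the lower summed marker level are in part the same measurement. Only COL1A1 passed against aortic sinus (1.13 ± 0.21), where the list median was 0.31. COL1A1 kept its call against pulmonary sinus without any single library. COL3A1, COL1A2 and POSTN each lost theirs without any of 4 libraries, MYH11 without any of 3, and COL1A1 against aortic sinus without any of 5. With only the compared groups in the fit, COL3A1 (edgeR adjusted p = 0.0768), COL1A2 (0.0857), POSTN (0.0692) and MYH11 (0.0578) did not pass. As log2(FPKM + 1), POSTN (1.04, limma adjusted p = 0.109) and COL1A2 (0.83, 0.0940) did not pass, nor did COL1A1 against aortic sinus (1.37, 0.0533). In POSTN the value without autograft replicate 1 was 0.93 (edgeR adjusted p = 0.102).

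**Figure D5:**
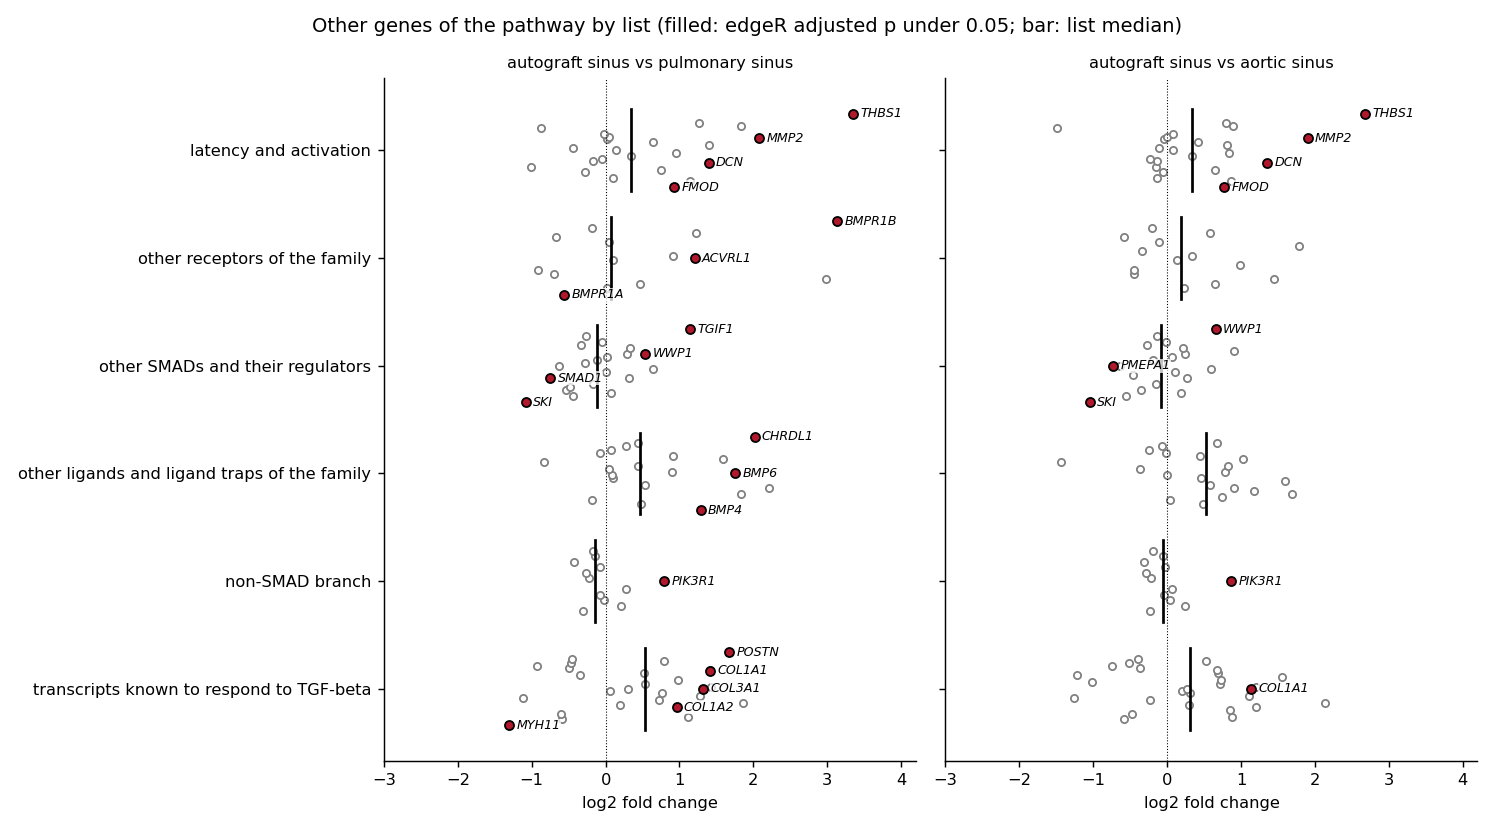
Log2 fold change of the tested genes, except 1 that is not shown, in the 6 lists of other pathway genes (rows) for autograft against pulmonary and against aortic sinus, with filled, named points where the edgeR adjusted p was under 0.05 and a bar at the list median. The latency and activation list has 4 filled points in both panels, all above 0, and the ligand and ligand trap list has 3 against pulmonary and none against aortic sinus.

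Between the native sinuses none of the 118 genes in these lists passed. In 5 of the 6 lists the genes with the smallest p were FBN2 (-0.86 ± 0.36), BMPR1A (-0.21 ± 0.10), PMEPA1 (0.25 ± 0.13), FSTL3 (0.41 ± 0.20) and CTGF (0.95 ± 0.58), each with an edgeR adjusted p of 0.99995. FBN2 encodes the fibrillin of developing microfibrils, to which latent TGF-beta complexes bind. It stood at 21.2 to 38.1 CPM in aortic and 32.0 to 81.2 CPM in pulmonary libraries, with overlap.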

How the data were processed

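The deposited count tables hold raw whole-number counts per gene symbol for each library and run. Deposited with them were tables of the authors' FPKM, with 15272 genes (run 1) and 15080 genes (run 2). Within these, the distribution of FPKM is equal between libraries, so it was equalised before deposit. Per the labels' protocols, RNA was isolated with TRIzol and TruSeq libraries were sequenced. Tools listed in the submitters' processing notes, with no role, are featureCounts 1.5.3, STAR 2.5.2b, Bowtie2 2.3.3.1 and cutadapt. The build, annotation and strand setting behind the counts were not given in the sources used, and reads of overlapping or antisense genes cannot be separated. No genome was used and no coordinates or sequences are given. All 10 symbols matched sheep gene names of RefSeq (assembly ARS-UI_Ramb_v3.0).

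Counts of both runs were added per library, because runs of a library differed far less (chi-square per gene of at most 1.51) than libraries of a group (at least 30.1). The row without a gene name (at most 0.000522% of a library) was left out. Genes were filtered with filterByExpr by group, libraries were scaled by TMM, and the 3 groups entered 1 edgeR quasi-likelihood fit (R 4.3.3, edgeR 4.0.16, limma 3.58.1) with no block. CPM carry the TMM scaling, and log2 CPM have a prior count of 2. FPKM were tested with limma as log2(FPKM + 1), as an alternative only. The procedure was tested on simulated data. The alternatives were DESeq2 1.42.0, limma-voom, other scalings and filters, single runs, FPKM, an animal block and left-out libraries. Per the labels, each replicate is a different animal.

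The 10 genes and the lists were chosen with earlier results of these data known. Besides the 10 genes, the text names up to 3 called genes of each list per comparison (smallest p first, or the smallest p where none was called) and the 3 genes most alike to each called gene by Pearson r of log2 CPM. The result of 1 gene of the lists is not reported here.

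Aortic and pulmonary libraries are paired by the animal in the labels. The deviations of an animal's libraries from their group means correlated at 0.45 in D6, 0.43 in D5, -0.13 in D4 and -0.18 in D3. Crosswise, aortic replicate 2 (D4) correlated at 0.40 with pulmonary replicate 1 (D3), and aortic replicate 1 (D3) at 0.26 with pulmonary replicate 2 (D4). All other pairs of different animals lay between -0.29 and 0.11. D3 and D4 were thus more alike crosswise than within the animal, and the reason was not tested. Fits with an animal block or without animal D3 used the labels as given.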

Additional observations from a re-analysis of the deposited data

Results flagged for a closer look

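In groups of 4 libraries, a single library was set apart when its gap to the nearest other divided by the group's range exceeded the critical value of Dixon's test at 95%. Chance flags about 1 in 20 such groups. For the 10 genes 2 of 20 groups were set apart, and with the genes named from the lists 3 of 72. TGFB2 stood at 24.6 CPM in pulmonary replicate 2, where the other 3 pulmonary libraries stood at 45.5 to 46.6 CPM. SMAD4 stood at 28.2 CPM in aortic replicate 1, the native library labelled as Ross surgery, where the other 3 aortic libraries stood at 35.1 to 35.6 CPM. MMP2 stood at 74.5 CPM in pulmonary replicate 2, where the others stood at 154 to 167 CPM. The cause was not tested in any of the 3 cases.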

How the results depend on the processing

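Over 28 alternatives, 764 of 820 values of the 10 genes kept their direction and their side of the threshold. TGFB1, TGFB2, TGFB3, TGFBR1 and SMAD4 kept their direction in every comparison and alternative run. Against pulmonary sinus 2 of the 10 were called, 1 with only the compared groups in the fit (SMAD4 passed, TGFBR1 did not), and 0 to 3 with single libraries left out (0 without autograft replicate 2, 3 without pulmonary replicate 1). Against aortic sinus 0 were called, 3 with DESeq2 and 1 with run 1 only (TGFB2, log2 fold change 1.001, edgeR adjusted p = 0.0436). The cause was not tested. Over all genes, 1699 were called against pulmonary sinus, 2997 with DESeq2, 479 with only the compared groups and 452 to 2753 with single libraries left out (452 without autograft replicate 2, 2753 without pulmonary replicate 1). Against aortic sinus 356 were called, 1469 with DESeq2, 110 without animal D3 and 25 to 576 with single libraries left out (25 without autograft replicate 2). With the animal as a random replicate block, 2, 0 and 0 of the 10 were called in the 3 comparisons, and with a fixed block 0 between the native sinuses, so the pairing changed no call of the 10.

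The sign turned in 43 values, all of genes near 0 and none called (TGFBR2, TGFBR3, SMAD2, SMAD3, LTBP1). LTBP1 turned against pulmonary sinus without animal D3 (0.0917). Against aortic sinus it turned without pulmonary replicate 1 and autograft replicate 1 (-0.0573) and on the FPKM scale (-0.22, -0.23 with a pseudocount of 0.1, -0.22 with a mean FPKM of at least 1). SMAD3 turned against aortic sinus with library totals only (-0.0032) and with run 1 only (-0.0557). Between the native sinuses TGFBR2 turned with limma-voom (0.0087), without animal D3 (0.0208), with run 1 only (0.0177) and with the random replicate block (0.0084). There LTBP1 turned without animal D3 (0.0889) and without pulmonary replicate 1 and autograft replicate 1 (0.0542), TGFBR3 with run 1 only (-0.0151) and SMAD3 with run 2 only (-0.0308). With single libraries left out, against pulmonary sinus TGFBR2 ranged from -0.36 to 0.13, SMAD2 from -0.24 to 0.0414, SMAD3 from -0.13 to 0.12 and LTBP1 from -0.15 to 0.0824. Against aortic sinus TGFBR2 ranged from -0.34 to 0.14, SMAD3 from -0.0562 to 0.0875 and LTBP1 from -0.0422 to 0.14. Between the native sinuses TGFBR2 ranged from -0.16 to 0.18, TGFBR3 from -0.0735 to 0.11, SMAD3 from -0.15 to 0.12 and LTBP1 from -0.17 to 0.0546. Scalings moved the median of all genes by less than 0.1 on the log2 scale.

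With 3 or 4 libraries a group, the SE of the log2 fold changes of the 10 genes lay between 0.12 and 0.27, which limits the size of difference that could be detected.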

Other observations

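ALAS2, the haem synthesis enzyme of red cell precursors, had 672 counts (38.2 CPM) in autograft replicate 3 and at most 3 counts in any other library.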
